A study of Homo sapiens with 2 samples.

Results

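The regulators of ERK signaling described here are 7 dual-specificity phosphatase genes (DUSP1, DUSP2, DUSP4, DUSP5, DUSP6, DUSP10 and DUSP16), the Sprouty genes SPRY1 and SPRY2, and SPRED1. Peaks were taken for a gene when their midpoint lay inside its hg38 span or within 100 kb of it, in lists made by chromatin immunoprecipitation and sequencing with antibodies to GFI1. That gave 26 of 7687 peaks for the antibody ab21061 and 29 of 7562 peaks for the antibody sc8558. Overlapping peaks of both lists were merged into shared regions, and 20 of 4853 such regions lay in the windows of the 10 genes. The genes were proposed with these peaks known, so their peak counts and scores describe them and were not tested.

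The cells were NB4, an established cell line from acute promyelocytic leukemia with the PML-RARA fusion gene, cultured with no treatment named beyond fixation in 1% formaldehyde for 10 min. The antibodies are labelled as directed at different parts of GFI1, with 1 library for each and 5 μg of antibody, and there were no replicates. The protocol text names an antibody to the PML/RARα fusion and a sample title (that of sc8558) says GFI2, so the antibody labels, which name GFI1 for both, were followed. Sequencing depth is unknown. Each peak carries the authors' score from the peak caller, which grows as the caller's p-value becomes smaller, and scores of the 2 lists are not compared as levels. The lower of the 2 scores of a shared region, here called the lesser score, is given only to describe and order regions. Scores ran from 50.01 to 3100 in both lists.

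GFI1 is a transcriptional repressor with zinc fingers, active in blood cells, that recruits histone demethylase and deacetylase complexes through its SNAG domain. ERK is the last kinase of the RAS-RAF-MEK-ERK cascade, which carries signals from growth factor and cytokine receptors in myeloid cells. The cascade induces several of its own inhibitors: DUSP phosphatases remove the activating phosphates from MAP kinases, and Sprouty and Spred proteins act further up, between receptor, RAS and RAF.

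Peaks reached the 250 bases before the transcription start of 3 genes, and these bases are shown. The ab21061 peaks of DUSP6 and DUSP16 covered the whole stretch and the start. The SPRED1 shared region reached only the first bases of its stretch and stopped short of the start. The stretches are from RefSeq on GRCh38.p14, written 5′ to 3′ on the gene's strand, with capitals marking the letters GGGCGG or their reverse complement, the core bound by KLF and SP factors. The DUSP6 stretch is chr12:89352502-89352751 on the minus strand, that of DUSP16 is chr12:12562864-12563113 on the minus strand, and that of SPRED1 is chr15:38252586-38252835 on the plus strand.
DUSP6: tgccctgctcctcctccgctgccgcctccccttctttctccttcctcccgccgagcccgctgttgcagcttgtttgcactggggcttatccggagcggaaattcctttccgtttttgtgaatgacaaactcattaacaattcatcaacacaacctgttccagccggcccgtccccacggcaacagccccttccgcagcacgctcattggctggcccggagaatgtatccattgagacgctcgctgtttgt
DUSP16: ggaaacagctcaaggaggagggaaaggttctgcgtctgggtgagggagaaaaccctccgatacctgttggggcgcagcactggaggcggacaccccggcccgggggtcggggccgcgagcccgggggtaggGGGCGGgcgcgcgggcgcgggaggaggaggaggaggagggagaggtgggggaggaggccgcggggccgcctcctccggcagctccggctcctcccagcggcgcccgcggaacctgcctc
SPRED1: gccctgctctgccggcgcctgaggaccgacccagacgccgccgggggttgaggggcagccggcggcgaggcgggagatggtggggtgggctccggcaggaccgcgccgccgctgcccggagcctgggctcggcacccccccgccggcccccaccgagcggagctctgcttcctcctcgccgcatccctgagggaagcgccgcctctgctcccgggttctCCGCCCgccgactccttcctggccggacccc
These stretches differed in base composition, with 57.2% G and C before DUSP6, 74.8% before DUSP16 and 78.4% before SPRED1. The median over the promoters of all genes was 58%.

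All 10 genes had at least 1 peak of each antibody in the window, and 9 of the 10 had a shared region. Among 20033 protein-coding genes of the RefSeq annotation, 45.3% had an ab21061 peak, 46.4% an sc8558 peak and 35.9% a shared region within 100 kb of their span. Within 10 kb of the span the count was 4 of the 10 genes (DUSP1, DUSP4, DUSP10 and SPRED1), where 12.8% of protein-coding genes had a shared region. The choice of the genes fixed these counts in part, so nothing further is read from them. DUSP5 and DUSP6 had 4 shared regions each, DUSP4 had 3, DUSP10, SPRY1 and SPRY2 had 2 each, and DUSP1, DUSP16 and SPRED1 had 1 each. DUSP2 had none. These counts depended on the threshold and the window. With peaks limited to scores of 100 or more, DUSP5, SPRY1, DUSP16 and SPRED1 had 0 shared regions, and DUSP4 and DUSP10 had 1 each. With only regions nearest to the member, DUSP6 and DUSP4 had 1 each and DUSP16 had 0. In windows of 50 kb DUSP5 had 2, DUSP4 had 1, and DUSP16 and SPRY2 had 0. Of all protein-coding genes, 331 (1.65%) had 4 or more within 100 kb, 847 (4.23%) had 3 or more and 2319 (11.6%) had 2 or more. The median gene span was 10.3 kb for the 10 genes and 24.1 kb for all protein-coding genes.

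**Figure D1:**
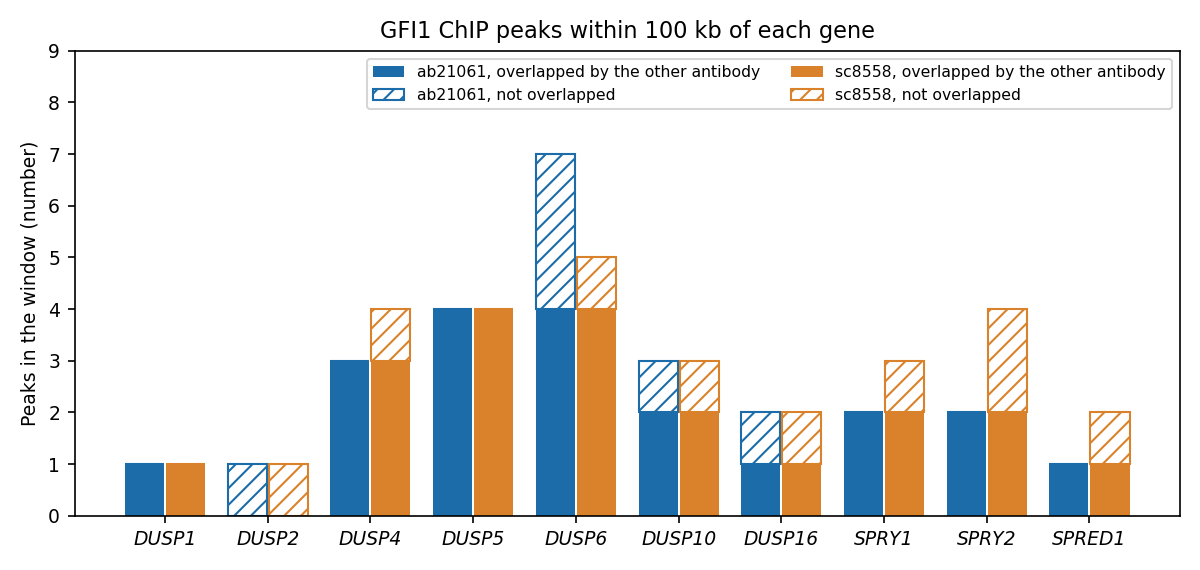
Number of ab21061 and sc8558 peaks (bars) with midpoint inside each gene or within 100 kb of it, split into those overlapped by a peak of the other antibody (filled) and those not overlapped (hatched). DUSP6 had the most ab21061 peaks, 7, and DUSP2 had a single peak of each antibody, neither overlapped.

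**Figure D2:**
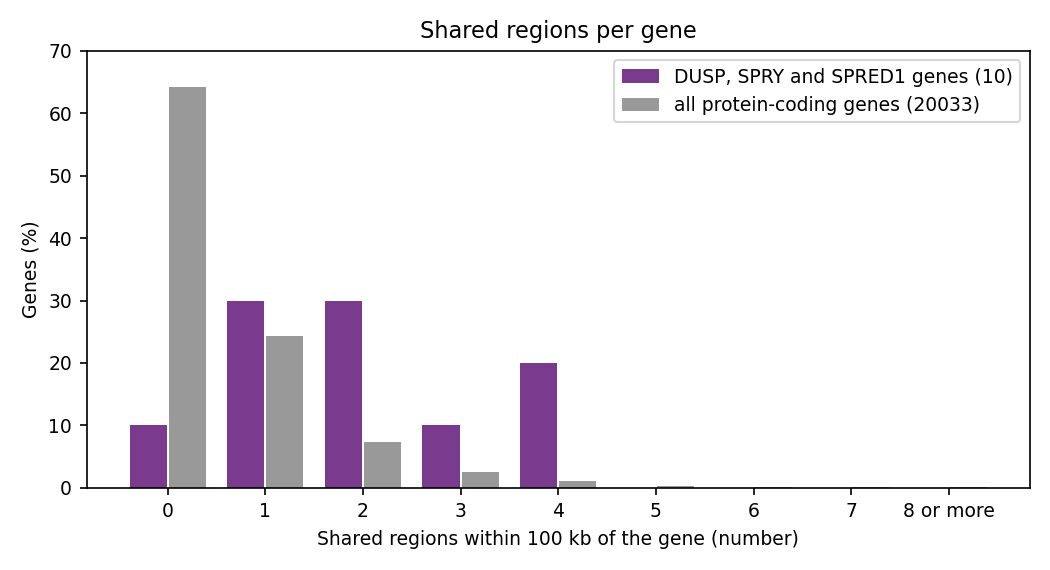
Percent of genes (bars) by number of shared regions within 100 kb, for the 10 DUSP, SPRY and SPRED1 genes and for all 20033 protein-coding genes. Without any shared region were 1 of the 10 genes and 64.1% of all protein-coding genes.

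The share of peaks found with both antibodies near these genes was 20 of 26 for ab21061 (76.9%, exact Clopper-Pearson 95% interval 56.4 to 91.0) and 20 of 29 for sc8558 (69.0%, 49.2 to 84.7). Over the whole lists the shares were 63.7% and 65.0%, which lie inside these intervals. The intervals cover counting error only and treat each peak as a separate draw. Peaks cluster by gene, with 7 of the 26 ab21061 peaks near DUSP6. The intervals are therefore not read as a test against the whole lists. Of the 20 shared regions, 19 joined a single peak of each list. The midpoints of the paired peaks were a median of 93 bp apart, against 67 bp over all shared regions.

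The regions were of ordinary strength as a group, with a wide range. The lesser score of a region ran from 50.1 to 363.03 with a median of 96.1, where the median over all shared regions was 88.0. It was 100 or more in 8 of the 20 regions, and in 41.9% of all shared regions. By distance, 2 regions were inside a gene, 3 were outside but within 10 kb, 8 lay between 10 and 50 kb and 7 between 50 and 100 kb. Most of each window lies more than 10 kb from the gene, and the same split was not made for other genes. It is therefore not read as a preference for distal sites. The member was the protein-coding gene with the nearest span for 13 of the 20, a share that was not taken for other genes either.

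**Figure D3:**
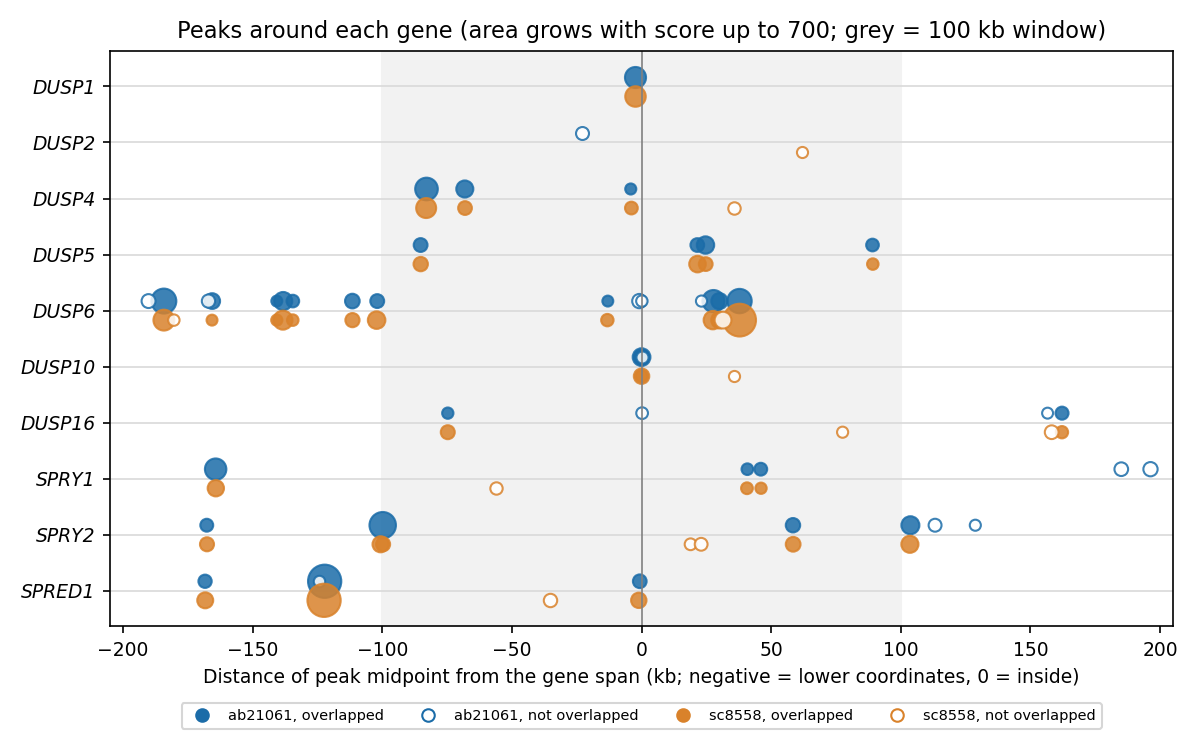
Peak midpoints by distance from the gene span (kb) for each gene, ab21061 above sc8558, filled where the other antibody overlapped and open where it did not, with marker area growing with the score up to 700. Shared regions lie on both sides of DUSP5, DUSP6 and SPRY2, while those of SPRY1 within 100 kb lie on the side of higher coordinates only.

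DUSP1, DUSP2, DUSP4 and DUSP5 encode the inducible phosphatases of the nucleus. DUSP1, also called MKP-1, is an immediate early gene whose product acts on p38 and JNK as well as ERK. It lies on chromosome 5 from 172768096 to 172771195 on the minus strand and had a single peak with each antibody. They formed a shared region from 172765010 to 172765957, with scores of 263.52 for ab21061 and 247.95 for sc8558. This region lay 2.61 kb beyond the finish of the gene and 5.71 kb from its start. Both scores stood high in their lists, with 91.3% of ab21061 peaks and 90.7% of sc8558 peaks at or below them. It was the strongest region within 10 kb of any of the 10 genes.

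DUSP2, also called PAC-1, encodes a phosphatase known from activated lymphocytes and lies on chromosome 2 from 96143169 to 96145440. Its ab21061 peak from 96119850 to 96120582 scored 82.15 and lay nearest to ASTL. Its sc8558 peak from 96206950 to 96207657 scored 52.6 and lay inside STARD7, a lipid transfer protein gene. The peaks were 86.4 kb apart, and DUSP2 was the only member without a shared region.

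DUSP4, also called MKP-2, lies on chromosome 8 from 29333064 to 29350684. Its nearest shared region, from 29328658 to 29329446, was 4.01 kb from the span and scored 52.18 with ab21061 and 78.71 with sc8558. The ab21061 score was low, with 6.61% of that list at or below it. The sc8558 score stood near the middle of its list, with 47.3% at or below it. The region spanning 29264393 to 29265399, at 68.2 kb, scored 163.15 with ab21061 and 96.16 with sc8558. The region spanning 29249713 to 29250501, at 83.0 kb, scored 309.42 with ab21061 and 233.94 with sc8558. So in both lists the peak farthest from DUSP4 was the strongest of the 3, and the farther 2 regions lay nearer to, or inside, KIF13B, a kinesin motor gene. On the other side of DUSP4 an sc8558 peak scored 73.1, with the nearest ab21061 peak 56.7 kb from it.

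DUSP5, which acts on ERK in the nucleus, lies on chromosome 10 from 110497907 to 110511533, and all 8 of its peaks were shared, with no peak inside the gene. A region spanning 110532447 to 110533624, at 21.5 kb, scored 95.44 with ab21061 and 152.47 with sc8558. Its neighbour from 110535661 to 110536733, at 24.7 kb, scored 170.27 with ab21061 and 95.95 with sc8558. The antibodies therefore ranked this neighbouring pair in opposite order, each placing a different region at the head of its DUSP5 peaks. On the other side, a region spanning 110412088 to 110413300 at 85.2 kb scored 97.26 with ab21061 and 107.09 with sc8558. The last, from 110600405 to 110600987 at 89.2 kb, scored 77.54 with ab21061 and 58.53 with sc8558 and lay inside SMC3, a cohesin subunit gene.

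DUSP6, also called MKP-3, encodes a phosphatase of the cytoplasm with a strong preference for ERK, and is a widely used readout of the activity of the cascade. It lies on chromosome 12 from 89347235 to 89352501 on the minus strand. Its strongest peaks lay upstream, in a stretch of 12.6 kb from 89379229 to 89391797 that held 3 ab21061 and 4 sc8558 peaks. The region spanning 89379229 to 89381246, 27.7 kb before the start, scored 294.64 with ab21061 and 194.01 with sc8558. The region spanning 89382110 to 89383025, at 30.1 kb, scored 142.4 with ab21061 and 155.26 with sc8558. The region spanning 89388846 to 89391797, at 37.8 kb, scored 363.03 with ab21061 and 678.89 with sc8558, which placed it at rank 393 of the ab21061 list and rank 104 of the sc8558 list. That was the highest sc8558 score near any of the 10 genes, and the peaks were broad, 2129 bp wide with ab21061 and 2952 bp wide with sc8558. The stretch lies within the readthrough gene POC1B-DUSP6, and POC1B, a centriole protein gene, lies nearer to it than DUSP6 does.

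Around the DUSP6 gene body itself the peak lists differed. With ab21061 a peak from 89351948 to 89353297 covered the start and the promoter stretch printed above, with a score of 57.48. A further ab21061 peak from 89345580 to 89347181, at the finish of the gene, scored 105.96. The nearest sc8558 peaks were 17.6 kb from the first and 11.2 kb from the second, so neither was in the sc8558 list, at a depth that is unknown. A weak shared region 13.1 kb beyond the finish scored 50.1 with ab21061, the lower end of its list, and 72.92 with sc8558. In the upstream stretch, an sc8558 peak that scored 156.78 was counted as not overlapped, although an ab21061 peak ended 149 bp from it. The remaining DUSP6 peak, found with ab21061 at 23.1 kb upstream, scored 53.32.

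**Figure D4:**
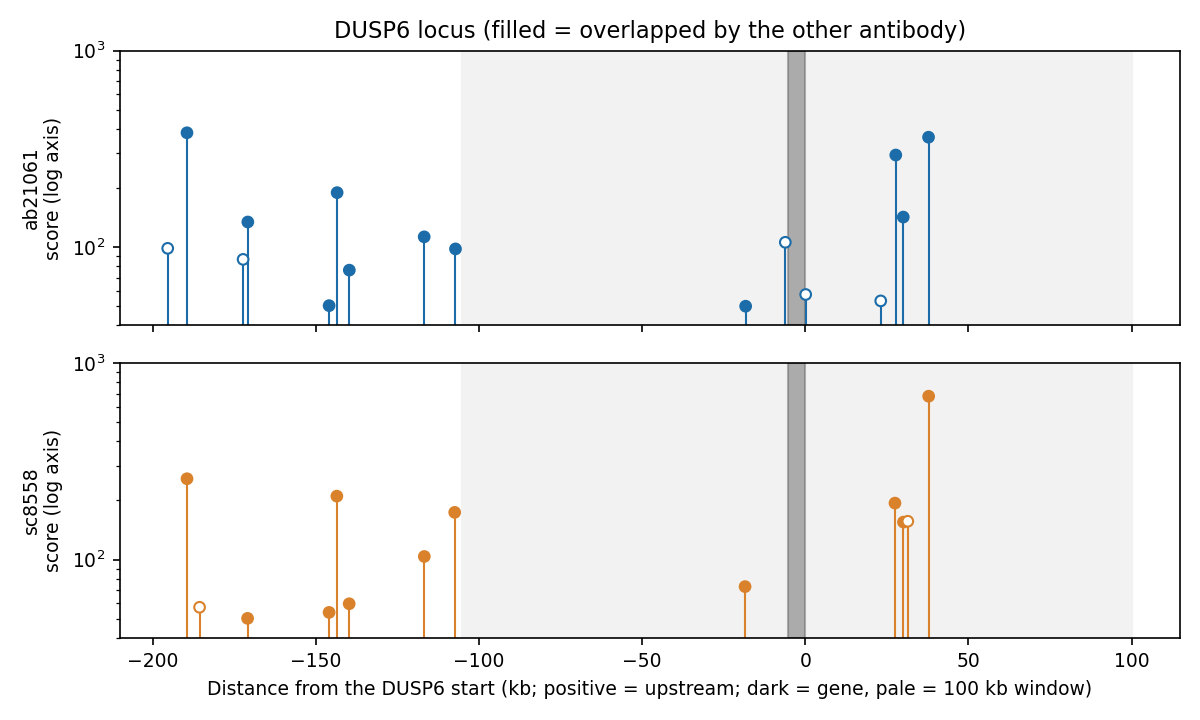
Peak scores (log axis) around DUSP6 by distance from its start (kb, positive upstream), ab21061 above and sc8558 below, filled where overlapped by the other antibody, with the gene as the dark band. The highest sc8558 peak, 678.89, stands 37.8 kb upstream, and ab21061 peaks at the gene itself have no sc8558 counterpart.

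Beyond the window the DUSP6 side of lower coordinates held a further 7 shared regions between 102.2 and 184.2 kb from the span, with DUSP6 the nearest protein-coding gene for each. The farthest, spanning 89162522 to 89163466, scored 382.39 with ab21061 and 258.09 with sc8558. Another, spanning 89208510 to 89209513, scored 189.6 with ab21061 and 210.46 with sc8558. Counted to 200 kb, DUSP6 had 11 shared regions, a number reached or passed by 8 of the 20033 protein-coding genes, DUSP6 and the readthrough gene included. The other 9 members had 0 to 4 regions in that wider window. Within 100 kb, the 4 regions of DUSP6 were a number reached or passed by 331 genes (1.65%). Because the genes were proposed with these peaks known, both ranks are descriptions and were not tested.

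DUSP10 and DUSP16 encode phosphatases that act mainly on JNK and p38. DUSP10, also called MKP-5, lies on chromosome 1 from 221701424 to 221742089 on the minus strand and was the only member with shared regions inside the gene. The region spanning 221704100 to 221705010 scored 178.66 with ab21061 and 128.54 with sc8558, and the midpoints of its peaks coincided. The region spanning 221707905 to 221708591 scored 123.55 with ab21061 and 64.88 with sc8558. They lay 3.13 and 6.82 kb from the finish of the gene. Their midpoints were 37.5 and 33.8 kb from the start at the other end of the span, and the table of promoters gives DUSP10 a further start inside the span, at 221736900. A further ab21061 peak inside the gene scored 66.5 and an sc8558 peak 35.6 kb from the span scored 53.29, both without overlap.

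DUSP16, also called MKP-7, lies on chromosome 12 from 12473282 to 12562863 on the minus strand. An ab21061 peak from 12562588 to 12563570, with a score of 61.59, covered its start and the promoter stretch printed above. The nearest sc8558 peak was 76.6 kb away. The only shared region, from 12398240 to 12398849, lay 74.7 kb beyond the finish and inside BORCS5, a gene of lysosome positioning. It scored 55.7 with ab21061 and 100.13 with sc8558. An sc8558 peak inside CREBL2, upstream of DUSP16, scored 52.97 without overlap. No peak found with both antibodies lay within 10 kb of DUSP16.

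SPRY1 and SPRY2 encode membrane-associated inhibitors of receptor tyrosine kinase signaling to ERK. SPRY1 lies on chromosome 4 from 123396795 to 123403760 on the plus strand. Its shared regions lay downstream, from 123444107 to 123444900 at 40.7 kb and from 123449466 to 123450064 at 46.0 kb. The nearer scored 60.64 with ab21061 and 62.68 with sc8558, and the farther scored 79.31 with ab21061 and 55.13 with sc8558. All 4 scores were below the medians of their lists, 82.4 for ab21061 and 81.7 for sc8558. An sc8558 peak upstream of SPRY1, not overlapped, scored 71.89.

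SPRY2 lies on chromosome 13 from 80335976 to 80341126 on the minus strand, with no other protein-coding gene in its window. A region spanning 80399123 to 80399979, 58.4 kb upstream, scored 107.97 with ab21061 and 114.49 with sc8558. A region spanning 80234797 to 80237493, 99.8 kb beyond the finish, was covered by 1 broad ab21061 peak of 2697 bp with a score of 433.03, the highest ab21061 score near any of the 10 genes. With sc8558 the same region held 2 narrower peaks with scores of 141.38 and 101.27. Nearer to the gene, 18.9 and 22.99 kb upstream of the span, sc8558 peaks scored 62.41 and 79.49 with no ab21061 peak within 34 kb. The weaker of this pair lay over a promoter window of LOC105370276.

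SPRED1 encodes a Sprouty-related protein that brings neurofibromin to the membrane to switch RAS off. It lies on chromosome 15 from 38252836 to 38357249 on the plus strand. Its shared region, from 38250952 to 38252591, ended before the gene start, at the first bases of the stretch printed above, with its midpoint 1.06 kb upstream. It scored 95.16 with ab21061 and 127.08 with sc8558, with 59.3% of ab21061 peaks and 74.3% of sc8558 peaks at or below. This was the only shared region that reached a promoter window of a member, by 2 bp with ab21061 and 6 bp with sc8558. An sc8558 peak 35.3 kb upstream, not overlapped, scored 89.3.

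**Figure D5:**
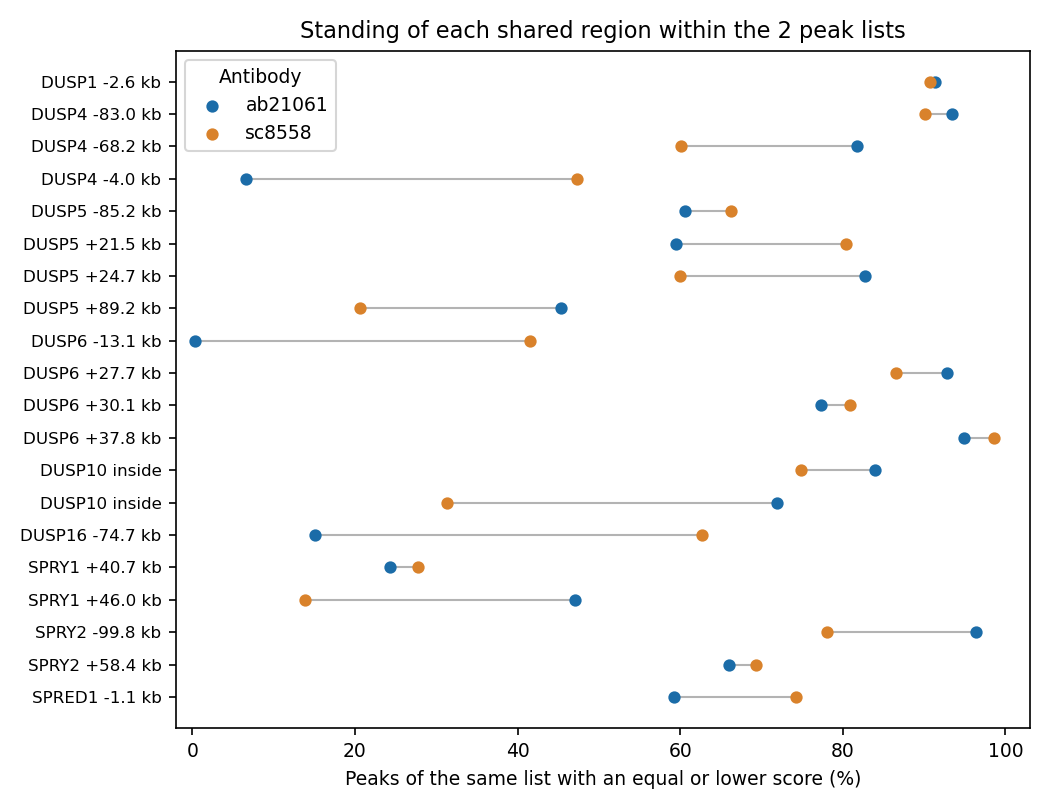
For each of the 20 shared regions (rows, named by gene and distance from its span), the percent of the same list with an equal or lower score, for ab21061 and sc8558. The DUSP1 region stood at 91.3 and 90.7%, whereas the region nearest to DUSP4 stood at 6.61 and 47.3%.

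Standing within the lists differed between the antibodies without a common direction. Of the 20 regions, 10 stood higher in the ab21061 list than in the sc8558 list. The closest standing was that of DUSP1. Wide gaps were found for the region inside BORCS5 near DUSP16, at 15.1% of the ab21061 list and 62.6% of the sc8558 list, and for the weak region beyond DUSP6, at 0.351% and 41.5%.

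At the edge of the window, the SPRY2 region 99.8 kb away was just inside, although the midpoint of the stronger of its 2 sc8558 peaks lay 100.7 kb from the span and was not counted. Just outside were a DUSP6 region at 102.2 kb with scores of 98.05 for ab21061 and 174.02 for sc8558, and a SPRY2 region at 103.7 kb with 184.66 for ab21061 and 164.35 for sc8558. Farther out, 122 kb upstream of SPRED1, a region spanning 38129046 to 38131766 scored 2289.76 with ab21061 and 2022.66 with sc8558, rank 5 and rank 6 of the lists. It lay nearer to TMCO5A than to SPRED1.

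The peaks were also set against promoter windows of 250 bases before to 50 bases after a gene start, from RefSeq. The table held 12 windows for 8 of the 10 genes, with none for DUSP4 and DUSP5. An ab21061 peak overlapped 3 of the 12 (DUSP6, DUSP16 and, by 2 bp, SPRED1), against 1.75% of 34943 windows of all genes. The DUSP6 and DUSP16 peaks were weak, with 18.9% and 25.9% of ab21061 peaks at or below them. An sc8558 peak overlapped 1 of the 12 against 1.8% of all, and a shared region 1 of the 12 against 1.47% of all. The choice of the genes fixed these overlaps in part, as it did the counts within 100 kb. In the 250 bases before the start, the GFI1 letters AATCACNG and the shorter AAATCA, which can overlap it, were in none of the 12 windows on either strand. They were in 2.74% and 11.6% of all windows. The KLF and SP core GGGCGG was in 8 of the 12 and in 42.5% of all windows, and the ETS core CCGGAA was in 2 of the 12 (SPRY1 and SPRY2) and in 14.5% of all. The cyclic AMP response element TGACGTCA was in the DUSP1 window alone and in 1.63% of all windows. The C/EBP letters TTGCNNAA were in a SPRY1 window and in 9.06% of all. The AP-1 letters TGANTCA, the RUNX core TGTGGT and the GATA core AGATAA were in none of the 12, and in 6.59, 11.0 and 9.19% of all windows. These shares were not adjusted for base composition, and with 12 windows of 8 genes nothing further is read from them. The searches cover the windows alone, and the bases under the distal peaks were not searched.

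Other genes of the pathway were counted in the same way, in lists chosen with earlier results of these data known. Of 73 genes in 6 lists, 31 (42.5%) had a shared region within 100 kb, against 35.9% of all protein-coding genes, and 16 (21.9%) had one within 10 kb, against 12.8%. By list, the share within 100 kb lay on both sides of that of all protein-coding genes. Among 15 other DUSP and related phosphatase genes there were 5 (33.3%) within 100 kb and 0 within 10 kb. The highest scoring were DUSP22 (423.1 with ab21061 and 337.36 with sc8558, 21.3 kb away), DUSP12 (183.37 and 191.36, 19.8 kb) and DUSP28 (120.55 and 283.63, 20.8 kb). Of the 4 other Sprouty and Spred genes, 2 (50%) had a shared region within 100 kb and 1 (25%) within 10 kb. SPRED2 held one inside the gene with 192.12 for ab21061 and 200.43 for sc8558, and SPRY4 had one 86.6 kb away with 149.21 for ab21061 and 358.57 for sc8558.

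Of 19 genes of the RAS-RAF-MEK-ERK core, 8 (42.1%) had a shared region within 100 kb and 4 (21.1%) within 10 kb. Over all protein-coding genes these shares were 35.9% and 12.8%. The region of SOS2, a RAS activator, scored 614.31 with ab21061 and 517.89 with sc8558 at 55.2 kb. The region of MAPK3, which encodes ERK1, scored 593.78 with ab21061 and 400.42 with sc8558 at 83.9 kb. For regions outside the genes of the pathway lists, whether another gene lay nearer was not determined. Of 10 genes for RAS GTPase activating proteins, which switch RAS off, 6 (60%) had a shared region within 100 kb and 4 (40%) within 10 kb. Their highest were RASA1 (596.47 with ab21061 and 471.69 with sc8558, 8.67 kb away), DAB2IP (360.61 and 294.33, inside the gene) and RASAL1 (276.56 and 304.99, 77.8 kb).

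Of 11 p38 and JNK branch genes, 3 (27.3%) had a shared region, all within 10 kb, against 35.9% of all protein-coding genes within 100 kb and 12.8% within 10 kb. MAPK10, which encodes a JNK, held one inside the gene with 351.15 for ab21061 and 161.88 for sc8558. MAPK13 and MAPK14, neighbouring p38 genes, had the same region with 68.12 for ab21061 and 60.99 for sc8558. Of 14 genes induced by ERK, 7 (50%) had a shared region within 100 kb and 4 (28.6%) within 10 kb. ETV5, which encodes an ETS factor, held one inside the gene with 223.94 for ab21061 and 186.94 for sc8558. The IER3 region, 44.0 kb away, scored 184.91 with ab21061 and 126.72 with sc8558, and that inside KLF2 scored 146.8 with ab21061 and 126.52 with sc8558.

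Genes with a pattern like that of the members with most regions were picked by the same number of shared regions within 100 kb and the closest highest lesser score. For DUSP6, with 4 regions and 363.03, the closest of 212 genes were UNC45B (364.6), LPAR6 (370.72) and DOCK8 (374.39). For DUSP5, with 4 regions and 97.26, the closest of 214 genes were TENT5A (96.47), and SIRPB1 and SIRPD (96.11 each). The likeness covers 2 libraries only.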

How the data were processed

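Per the submitters' processing notes, Bowtie2 2.2.9, MACS 1.4.2 and the hg38 build were used. Options, read filters and the control library were not stated in the labels. As deposited, the files are peak lists per library, not on pooled libraries, each peak with a position and the authors' score. No genome sequence was used here. Gene spans, names and promoter sequences came from RefSeq tables on GRCh38.p14, the same build as hg38, and the strand came from the promoter table. Coordinates count from 1.

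Overlap was counted from 1 bp, and linked peaks were merged into shared regions, each scored by its highest peak of each list and placed by its midpoint. Distances run from that midpoint to the gene span. Shares have exact Clopper-Pearson 95% intervals. With 1 library per antibody no test between antibodies was made. The genes, pathway lists and motifs were chosen with earlier results of these data known. Named genes were all 10 members, up to 3 genes of each pathway list with the highest lesser score, nearest genes of members' regions and genes of like pattern. Of these, 1 is not reported here. STARD7, ASTL, CREBL2, POC1B, TMCO5A and LOC105370276 were named after their peaks were seen. Overlap and window counting were tested on simulated peaks. Tools were scipy 1.17.1, pandas 2.3.3, numpy 2.4.6, matplotlib 3.10.9 and networkx 3.6.1 under Python 3.11.15. Alternatives were a score of 100 or more, windows of 50 and 200 kb, stricter overlap and nearest gene only.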

Additional observations from a re-analysis of the deposited data

How the results depend on the processing

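With 1 library per antibody none could be left out, and because depth is unknown, a peak missing from either list may be below detection. No paired analysis was possible because each antibody has a single library. With peaks of either list limited to scores of 100 or more there were 12 ab21061 and 13 sc8558 peaks and 8 shared regions in the windows, 5 genes had a shared region within 100 kb and 2 within 10 kb, since fewer peaks enter. Windows of 50 kb held 19 sc8558 peaks and 13 shared regions. Windows of 200 kb held 47 ab21061 peaks, 45 sc8558 peaks and 33 shared regions. With only peaks for which the member had the nearest span, there were 16 ab21061 peaks, 18 sc8558 peaks and 13 shared regions. Leaving out the readthrough gene POC1B-DUSP6, an alternative chosen after seeing the data, raised the ab21061 peaks to 18 and left 18 sc8558 peaks and 13 shared regions. Counts of shared regions per gene moved by over 1.5 times in 21 of 70 values. The largest windows gave 11 for DUSP6, 4 for SPRY2, 3 for SPRED1 and 2 for DUSP16, and requiring overlap of 50% of both peaks gave 1 for SPRY2. The share of overlapped peaks ran from 66.7 to 76.9% for ab21061 and from 61.5 to 75.6% for sc8558 in the 5 settings run for it. These settings reuse many of the same peaks and the intervals are wide, so the narrow range is not separate support.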
